A study of Sus scrofa with 6 samples.

Results

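The SLC25 mitochondrial carriers are here the 41 gene IDs of the deposited TPM table whose name began with SLC25A followed by a digit, out of 31908 Ensembl pig gene IDs listed. All transcript rows of a gene ID were summed. RNA came from IPEC-J2, a non-transformed epithelial line from the jejunum of newborn piglets, in 6 libraries. The CON group comprised 3 libraries of cells given PBS, and the CDCA group comprised 3 libraries of cells given 50 μM chenodeoxycholic acid (CDCA), a primary bile acid; both were harvested after 24 h. All libraries came from 1 cell line at 1 dose and 1 time, and the labels do not say which libraries came from separate cultures, so the p-values measure the spread between these libraries only.

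The inner mitochondrial membrane is closed to most charged metabolites, and the carriers of the SLC25 family are the proteins that let nucleotides, phosphate, carboxylates, amino acids, acylcarnitines, cofactors and metal ions across it. They are encoded in the nucleus, made in the cytosol and inserted into the inner membrane by the TIM22 translocase, and most of them exchange 1 solute for another. In the intestinal epithelium, where glutamine and glutamate are major fuels, the aspartate/glutamate, glutamate and citrate carriers link the matrix with the cytosol.

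TPM is a level per transcript length, so it allows genes to be compared with each other as well as between groups. The table holds no read counts per gene, so the counting error of a value could not be computed. Below, a value with ± is the mean and SD of the 3 libraries of a group. Between 351770 and 366073 of the 1000000 TPM of a full library were listed, and transcripts outside the listed rows were not analysed here. The mRNAs encoded by mitochondrial DNA (mtDNA) took up 14.3% of the listed total in CON and 3.20% in CDCA, which moves the scale of all other genes. Of 9 epithelial markers matched, EPCAM (118 to 126 TPM in CON, 152 to 173 in CDCA), KRT18 (64.6 to 66.4 and 71.4 to 79.2) and TJP1 (19.8 to 22.5 and 24.7 to 25.4) were higher in every CDCA library, KRT8 (219.7 to 238 and 190.2 to 225) overlapped, and CLDN1 (445 to 502 and 190.2 to 215) was lower. The 9 markers summed to 876 to 934 TPM in CON against 645 to 699 in CDCA, and without CLDN1 to 431 to 445 against 443 to 484. The epithelial marker CDH1 (0.31 to 0.58 TPM) and the intestinal markers VIL1, CDX2 and FABP2 (at most 0.64 TPM) were listed near 0, but so were genes that most cells use, such as GOT1 (0 in all libraries) and VDAC1 (0.25 to 1.64 TPM), so a low value speaks for the listed transcripts alone. Of 10 markers of other cells, VIM stood at 1862 to 2063 TPM, and the other 9 summed to 3.61 to 5.44 TPM in CON and 7.25 to 8.08 TPM in CDCA, with PTPRC, COL3A1, DES and ACTA2 at or below 0.15 TPM. Among them CD68 was higher in every CDCA library (0 to 0.26 and 4.44 to 5.33 TPM), whereas PECAM1 (1.66 to 2.14 and 1.12 to 1.33 TPM) and COL1A2 (0.54 to 0.80 and 0.22 to 0.52 TPM) were lower, and without CD68 the sum was 3.61 to 5.44 TPM in CON against 2.50 to 2.92 in CDCA. The part of these markers in the results was not tested. In bulk RNA, fewer cells of a kind and less RNA per cell cannot be told apart.

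Levels within the family spanned from SLC25A6, the ADP/ATP carrier also named ANT3, with a mean of 1122 TPM over the 6 libraries, to SLC25A31 and SLC25A48, which were listed at 0 in each of them. Together the 41 carriers held 2030 ± 41.65 TPM in CON against 2141 ± 12.2 in CDCA, a ratio of 1.05 that became 0.948 when the family was taken as a share of the listed TPM without the mtDNA-encoded genes. SLC25A6 alone made up 47.9% of that sum in CON and 59.4% in CDCA. Without it the sum of the other carriers was 1057 ± 38.9 TPM in CON against 869 ± 8.65 in CDCA, a ratio of 0.822, so the 2 groups of libraries did not overlap and lay in the opposite order to the full sum. The 41 gene IDs had 130 listed transcript rows, of which 21 were at 0 in all libraries.

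**Figure D1:**
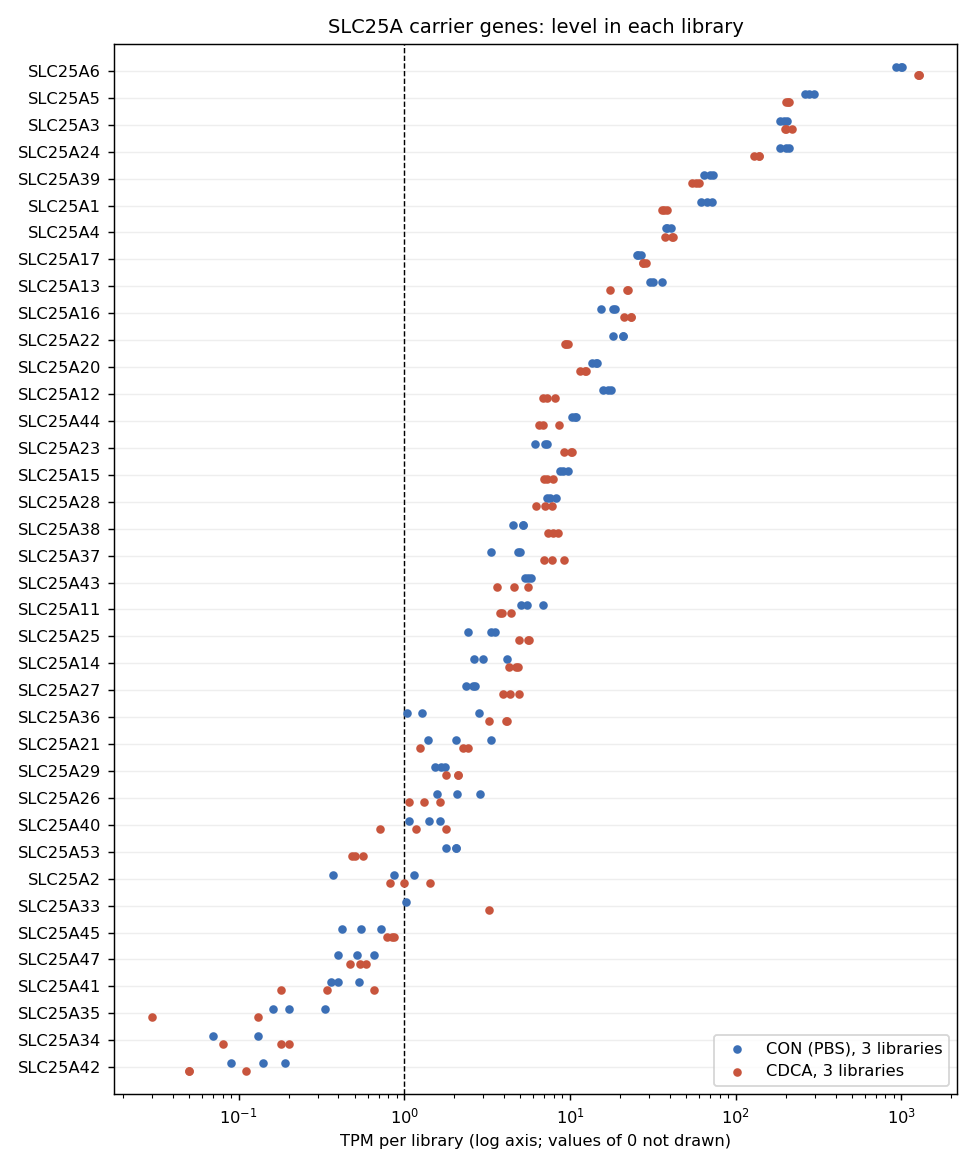
TPM of 38 SLC25A carrier genes in each library on a log axis, ordered by the mean over 6 libraries; blue points are the 3 CON libraries, red points the 3 CDCA libraries, and the dashed line marks 1 TPM. SLC25A6 stands above all others at 926 to 1278 TPM, and the carriers with a mean below the line were not tested.

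The order of the levels was similar in both groups at the top. In CON it ran SLC25A6, SLC25A5, SLC25A24, SLC25A3, SLC25A39, SLC25A1, SLC25A4, SLC25A13, SLC25A17 and SLC25A22. SLC25A24 and SLC25A3 overlapped between libraries, as did SLC25A39 and SLC25A1. In CDCA, SLC25A5 (202 to 208 TPM) and SLC25A3 (197 to 219 TPM) overlapped, SLC25A24 had rank 4, and SLC25A4 (37.4 to 41.9 TPM) overlapped with SLC25A1 (35.8 to 38.3 TPM). SLC25A12 went from rank 12 in CON to rank 16 in CDCA and SLC25A22 from rank 10 to rank 13, whereas SLC25A37 went from rank 22 to rank 14. Below about 5 TPM, most neighbours in the order overlapped.

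To ask which carriers differed between CDCA and CON, 31 members with a mean of at least 1 TPM were tested among all 8708 such genes by limma on log2(TPM + 1), with Benjamini-Hochberg adjustment (FDR). Carriers with an FDR under 0.05 are said to rise or fall, and those that also had a log2 fold change over 1 in size are said to be called. Adding 1 TPM before the log shrinks the fold change of carriers listed at a few TPM. Of the 31, 9 rose and 13 fell in CDCA, and 9 did not pass. Over all tested genes, 29.3% rose and 23.9% fell, or 53.2% in either direction, against 71.0% of the tested carriers; 24 of the 31 carriers had groups of libraries that did not overlap, against 61.5% of all tested genes. Only SLC25A12 was called lower and no carrier was called higher, where 3.90% and 3.51% of all tested genes were. The median log2 fold change was -0.12 for the tested carriers (quartiles -0.46 and 0.38) and 0.05 for all tested genes (quartiles -0.28 and 0.36). Log2 fold changes above 0 were found in 13 of the 31, against 54% of all tested genes. No test of the list against other genes was made, and the family did not move in 1 direction.

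**Figure D2:**
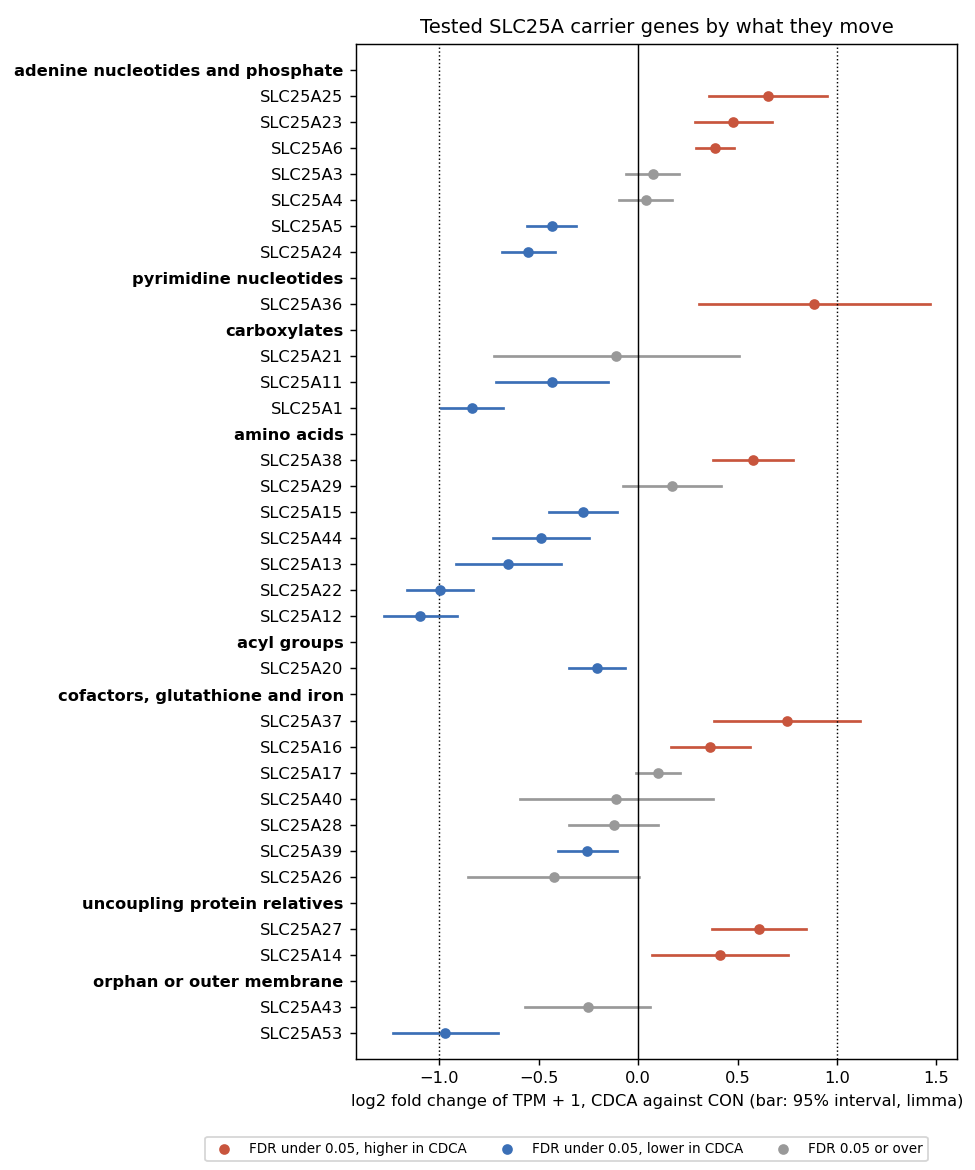
Log2 fold change of TPM + 1 in CDCA against CON for 30 of the 31 tested carriers, grouped by what they move, with 95% intervals from limma; red marks carriers that rose, blue those that fell and grey those that did not pass, and dotted lines mark a log2 fold change of 1 in size. Amino acid and carboxylate carriers lie mostly to the left of 0, and both uncoupling protein relatives to the right.

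Among the carriers of adenine nucleotides and phosphate, 7 were tested, of which 3 rose, 2 fell and 2 did not pass, so 71.4% passed against 53.2% of all tested genes. The ADP/ATP carriers bring ADP into the matrix and send ATP out. SLC25A6 (ENSSSCG00000033673) was measured at 926, 1005 and 988 TPM in the CON libraries, against 1278, 1276.5 and 1261 TPM in the CDCA libraries, so every CDCA library lay above every CON library. The log2 fold change was 0.39 with a standard error of 0.04 (limma FDR 0.000318). It was 0.23 (limma FDR 0.00298) with totals of the listed TPM taken without the mtDNA-encoded genes. SLC25A5, the ADP/ATP carrier ANT2 that proliferating cells express, went the other way, from 297, 278 and 261 TPM in the CON libraries to 208, 208 and 202 TPM in the CDCA libraries. Its log2 fold change was -0.43 with a standard error of 0.05 (limma FDR 0.000584), and the CDCA libraries lay below all CON libraries. SLC25A4, the ANT1 form of heart and muscle, had similar values at 39.0 ± 1.32 TPM and 40.1 ± 2.37 TPM and did not pass (limma FDR 0.594, 95% interval of the log2 fold change -0.10 to 0.17). SLC25A6 thus made up 75.4% ± 1.83 of the summed TPM of these 3 carriers in CON and 83.8% ± 0.12 in CDCA. The coding sequences of these close paralogs, and the processed copies that ADP/ATP carriers are known to have in mammalian genomes, can share reads, and how RSEM split them cannot be seen from the TPM.

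SLC25A3, the phosphate carrier that supplies ATP synthase, was measured at 203, 197 and 184 TPM in the CON libraries, against 199.6, 219 and 197 TPM in the CDCA libraries. These groups overlapped, and the gene did not pass (log2 change 0.07, SE 0.06, limma FDR 0.309). The ATP-Mg/phosphate carriers, which set the size of the adenine nucleotide pool of the matrix and most of which respond to calcium, split. SLC25A24, by far the most abundant of them, was measured at 210.0, 201 and 186 TPM in the CON libraries, against 138, 129.6 and 138 TPM in the CDCA libraries. It fell with a log2 fold change of -0.55, standard error 0.06 (limma FDR 0.000269). SLC25A25 rose from 3.31, 3.51 and 2.42 TPM in the CON libraries to 4.92, 5.56 and 5.66 TPM in the CDCA libraries, with a log2 fold change of 0.65, standard error 0.13, (limma FDR 0.0047), the largest in size in this group. SLC25A23 rose from 6.80 ± 0.57 to 9.86 ± 0.62 TPM. SLC25A41, next to SLC25A23 in the RefSeq annotation of Sscrofa11.1, stayed under 1 TPM in all libraries and was not tested.

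**Figure D3:**
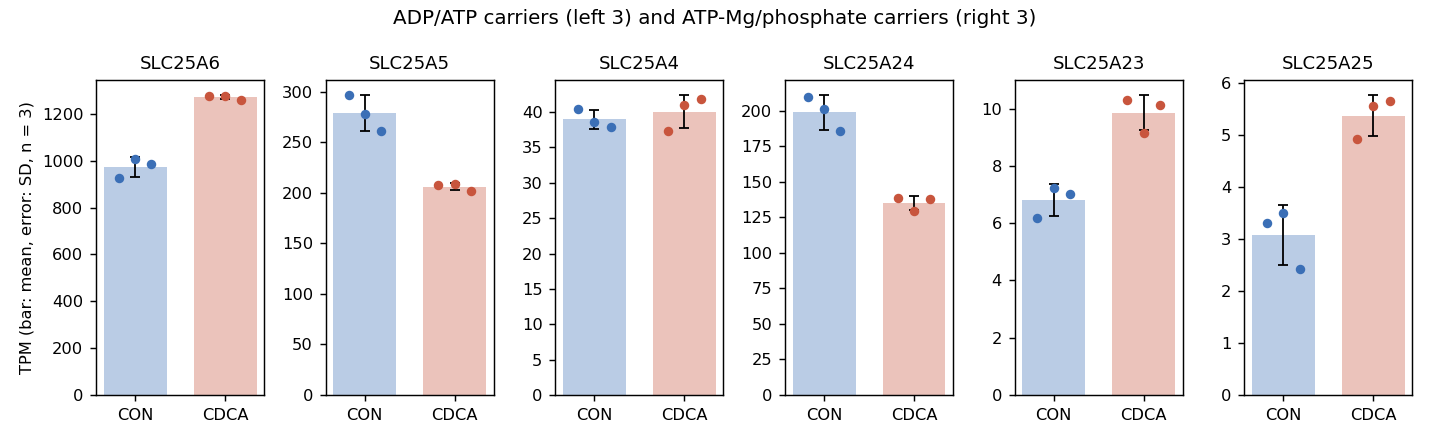
TPM of 3 ADP/ATP carriers and 3 ATP-Mg/phosphate carriers; bars are group means, error bars the SD of 3 libraries, and points single libraries, with a separate axis from 0 for each gene. SLC25A6, SLC25A23 and SLC25A25 are higher in every CDCA library, SLC25A5 and SLC25A24 lower, and SLC25A4 overlaps.

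A ratio of 2 carriers within a library does not depend on how that library was scaled. In 5 such ratios the groups did not overlap, but these were chosen after the values were seen, so they are a description. An exact permutation test gave p = 0.1 for each, the smallest value that 3 libraries per group allow, so it cannot decide. The ratio of SLC25A6 to SLC25A5 was 3.12, 3.61 and 3.78 in CON and 6.16, 6.13 and 6.24 in CDCA. That of SLC25A24 to SLC25A23 was 29.5 ± 4.07 in CON and 13.7 ± 0.38 in CDCA, and that of SLC25A24 to SLC25A25 was 65.8 ± 9.89 and 25.3 ± 2.55.

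Of 3 tested carriers of carboxylates, 0 rose, 2 fell and 1 did not pass, where 29.3% of all tested genes rose and 23.9% fell. SLC25A1, which exports citrate for lipid synthesis, was measured at 61.5, 67.4 and 71.95 TPM in the CON libraries, against 38.3, 37.1 and 35.8 TPM in the CDCA libraries. Its log2 fold change was -0.83 with a standard error of 0.06 (limma FDR 8.79e-05), with all CDCA libraries far below all CON libraries. SLC25A11, the oxoglutarate/malate carrier of the malate-aspartate shuttle, fell from 5.81 ± 0.97 to 4.02 ± 0.32 TPM. Its limma FDR was 0.0201, but 0.0677 without CDCA replicate 1 and 0.0618 without CDCA replicate 3. SLC25A21, the oxoadipate carrier of lysine and tryptophan breakdown, had widely spread values of 1.39 to 3.32 TPM in CON and 1.25 to 2.41 TPM in CDCA and did not pass.

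Of 7 tested amino acid carriers, 5 fell, 1 rose and 1 did not pass, where 23.9% of all tested genes fell and 29.3% rose. On the log2(TPM + 1) scale SLC25A12 and SLC25A22 had the 2 largest falls among the tested members. By the ratio of means SLC25A53 (0.2615) lay below both (0.437 and 0.475). SLC25A12 (ENSSSCG00000015949), the aspartate/glutamate carrier aralar, which drives the malate-aspartate shuttle, was measured at 17.8, 17.04 and 15.8 TPM in the CON libraries, against 6.85, 7.21 and 8.06 TPM in the CDCA libraries. Its log2 fold change was -1.09 with a standard error of 0.08 (limma FDR 6.27e-05), and without each library in turn it stayed between -1.15 and -1.05. SLC25A13 (citrin), the paralog that liver uses for the same exchange, fell from 31.8, 36.05 and 30.5 TPM in the CON libraries to 17.3, 22.05 and 22.4 TPM in the CDCA libraries (log2 change -0.65, SE 0.11, limma FDR 0.00283). Read from its most abundant transcript alone, SLC25A13 had a log2 fold change of -0.41. Together they held 49.7 ± 3.39 TPM in CON against 28.0 ± 3.34 in CDCA, and the ratio of SLC25A13 to SLC25A12 was 1.95 ± 0.16 in CON and 2.79 ± 0.26 in CDCA.

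SLC25A22, a glutamate importer, went from 18.1, 21.0 and 20.8 TPM in the CON libraries to 9.34, 9.70 and 9.39 TPM in the CDCA libraries, a ratio of 0.475. On the log2(TPM + 1) scale its fold change was -0.997 (SE 0.07, limma FDR 6.17e-05), just inside the limit for a call, which it passed without CON replicate 1 (-1.06), without CDCA replicate 2 (-1.01), with 0.1 TPM added (-1.06), with totals without the mtDNA-encoded genes (-1.15), with rescaling to 1000000 (-1.02) and with median ratio scaling (-1.04). SLC25A44, a carrier of branched-chain amino acids, fell from 10.6 ± 0.34 to 7.32 ± 1.12 TPM. SLC25A15, the ornithine carrier of the urea cycle, fell from 9.14 ± 0.46 to 7.37 ± 0.48 TPM with a limma FDR of 0.0165, which was 0.0502 without CON replicate 1, 0.0600 without CDCA replicate 1, 0.0503 without CDCA replicate 2 and 0.0524 with the replicate number as a block. SLC25A38, which imports glycine for heme synthesis, was the only amino acid carrier to rise, from 5.19, 4.50 and 5.22 TPM in the CON libraries to 8.45, 7.35 and 7.93 TPM in the CDCA libraries (log2 change 0.58, SE 0.08, limma FDR 0.00146). SLC25A29, a carrier of basic amino acids, did not pass although its groups did not overlap (1.54 to 1.77 TPM in CON, 1.78 to 2.11 TPM in CDCA). SLC25A2 had a mean of 0.935 TPM over the 6 libraries and was not tested.

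The carnitine/acylcarnitine carrier SLC25A20, which brings long-chain acyl groups to β-oxidation, was measured at 13.6, 14.6 and 14.25 TPM in the CON libraries, against 11.5, 12.6 and 12.3 TPM in the CDCA libraries. Every CDCA library was lower, by a small step: the log2 fold change was -0.21 with a standard error of 0.06 (limma FDR 0.0231). The FDR was 0.0789 without CON replicate 2, 0.0564 without CON replicate 3, 0.0763 without CDCA replicate 1 and 0.0510 without CDCA replicate 3. SLC25A20 fell by 0.35 on the log2 scale (limma FDR 0.00215) when totals left out mtDNA-encoded genes.

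Of the carriers of cofactors, glutathione and iron, 8 were tested, of which 2 rose, 2 fell and 4 did not pass, so 4 of 8 passed, near the 53.2% of all tested genes. SLC25A39, a glutathione importer, was the fifth most abundant carrier, at 63.9, 72.5 and 70.1 TPM in CON and 54.4, 57.8 and 60.1 TPM in CDCA. It fell with a log2 fold change of -0.26, standard error 0.06 (limma FDR 0.0125), which was -0.41 when totals left out mtDNA-encoded genes, while its paralog SLC25A40 stood near 1 TPM and did not pass.

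Mitoferrins import iron for heme and iron-sulfur clusters. SLC25A37 (mitoferrin-1) rose from 4.87, 4.97 and 3.34 TPM in the CON libraries to 7, 7.83 and 9.25 TPM in the CDCA libraries (log2 change 0.75, SE 0.15, limma FDR 0.00624). SLC25A28 (mitoferrin-2) did not pass, at 7.70 ± 0.50 TPM in CON against 7.01 ± 0.81 in CDCA. Mitoferrin-1 was the lower of the pair in every CON library and the higher in every CDCA library, with a ratio of SLC25A37 to SLC25A28 of 0.671, 0.603 and 0.440 in CON and of 1.13, 1.12 and 1.18 in CDCA. SLC25A16, linked to coenzyme A transport, rose from 17.4 ± 1.78 to 22.65 ± 1.18 TPM with a limma FDR of 0.00992. The FDR was 0.0733 when totals of the listed TPM were taken without the mtDNA-encoded genes and 0.0590 for its highest listed transcript. SLC25A17, a carrier of the peroxisome, was higher in every CDCA library by a small step (25.4 to 26.9 TPM in CON, 27.4 to 28.8 TPM in CDCA) and did not pass. SLC25A26, which imports S-adenosylmethionine, did not pass either (2.17 ± 0.66 and 1.34 ± 0.28 TPM; limma FDR 0.0867), except without CON replicate 3 (0.0390) and with totals without the mtDNA-encoded genes (0.0443).

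Both tested uncoupling protein relatives rose, as did 29.3% of all tested genes. SLC25A27 (UCP4) was measured at 2.67, 2.37 and 2.60 TPM in the CON libraries, against 4.33, 4.95 and 3.96 TPM in the CDCA libraries (log2 change 0.61, SE 0.10, limma FDR 0.00232). SLC25A14 (UCP5) went from 3.26 ± 0.82 to 4.61 ± 0.31 TPM, with a limma FDR of 0.0485. SLC25A14 no longer passed without CON replicate 2 (0.133), CON replicate 3 (0.129), CDCA replicate 1 (0.0793), CDCA replicate 2 (0.118) or CDCA replicate 3 (0.129), with the replicate block (0.0876), with median ratio scaling (0.0631), with no filter on low values (0.109) and with totals without the mtDNA-encoded genes (0.135). Its highest transcript row alone went from 2.56 ± 0.19 to 4.22 ± 0.41 TPM and passed (log2 change 0.55, limma FDR 0.00458). Another row of SLC25A14 was at 1.34 TPM in CON replicate 1 and 0.21 TPM in CON replicate 2.

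The pyrimidine nucleotide carrier SLC25A36 had the largest rise among the tested members on the log2 scale, 0.89 (SE 0.24, limma FDR 0.0208). It was measured at 2.82, 1.27 and 1.03 TPM in the CON libraries, against 4.17, 3.23 and 4.08 TPM in the CDCA libraries, with CON replicate 1 apart from the other two. The extra value of CON replicate 1 came from a second transcript row, at 1.44 TPM there and 0 in the other 5 libraries, and the first row alone went from 1.23 ± 0.18 to 3.74 ± 0.45 TPM. For the gene sum of SLC25A36 the FDR was 0.0694 without CON replicate 2, 0.0605 without CON replicate 3, 0.0669 without CDCA replicate 1, 0.0640 without CDCA replicate 3 and 0.0557 when weakly expressed genes were kept. Its log2 fold change was 1.16 without CON replicate 1 and 1.09 for the highest transcript (limma FDR 0.000565). For the gene sum it was also past the limit for a call with 0.1 TPM added (1.24) and with rescaling to 1000000 (1.13). SLC25A33, the other pyrimidine carrier, was listed at 0 in 4 libraries, at 1.02 TPM in CON replicate 2 and at 3.23 TPM in CDCA replicate 1, and was not tested.

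SLC25A53, an orphan carrier, had the lowest ratio of means among the tested members, 0.2615, with 2.05, 2.05 and 1.79 TPM in CON and 0.50, 0.56 and 0.48 TPM in CDCA. The groups were far apart, and the log2 fold change was -0.97 with a standard error of 0.11 (limma FDR 0.000466). Its CDCA values lay under 1 TPM, so it met the filter for testing only through its CON libraries. When 0.1 TPM was added before the log, SLC25A53 had a log2 fold change of -1.75, past the limit for a call, as it also was without CON replicate 3 (-1.01), when totals left out mtDNA-encoded genes (-1.09) and with rescaling to 1000000 (-1.40). SLC25A43, the neighbour of SLC25A5 in the RefSeq annotation of Sscrofa11.1, did not pass (5.60 ± 0.24 and 4.59 ± 0.96 TPM; limma FDR 0.151), except without CDCA replicate 3 (0.0428) and with totals without the mtDNA-encoded genes (0.0455). In all, 10 members had a mean under 1 TPM and were not tested: SLC25A2, SLC25A33, SLC25A45, SLC25A47, SLC25A41, SLC25A35, SLC25A34, SLC25A42, SLC25A31 and SLC25A48.

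A change of a gene sum could come from 1 transcript row or from all of them, so the rows were read one by one. The table gives no transcript IDs, and rows are numbered here by their mean. The falls of SLC25A12 and SLC25A1 were seen in each of their main rows: the 3 main rows of SLC25A12 had CDCA to CON ratios of 0.327, 0.446 and 0.651, and the 2 main rows of SLC25A1 had 0.569 and 0.514. In SLC25A13 the first row had a ratio of 0.737, and the second, at 14.1, 18.9 and 13.4 TPM in CON and 3.46, 9.80 and 8.95 TPM in CDCA, had 0.479. In SLC25A6 the first 2 rows were higher in every CDCA library (504 ± 23.4 to 626 ± 2.49 TPM and 221 ± 28.7 to 353 ± 47.55 TPM), while the third overlapped between the groups (248 ± 63.8 and 292 ± 43.9 TPM). Of the 41 gene IDs, 10 had a single listed row, among them SLC25A22, SLC25A37 and SLC25A53.

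**Figure D4:**
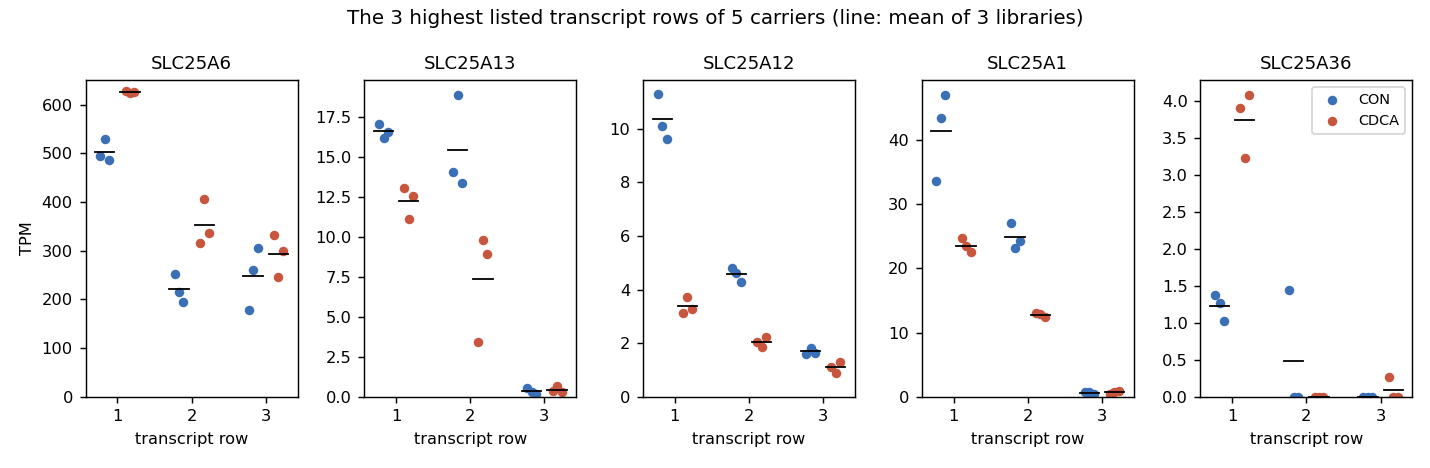
TPM of the 3 highest transcript rows of 5 carriers in each library; blue points are CON, red points CDCA, and lines are means of 3 libraries. The 3 rows of SLC25A12 and the first 2 rows of SLC25A1 are lower in every CDCA library, and the second row of SLC25A36 is above 0 in 1 CON library only.

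Several gene IDs of the same family fell outside the name rule. UCP2, an uncoupling protein of the inner membrane and itself an SLC25 member under another symbol, was measured at 7.98, 9.04 and 10.3 TPM in the CON libraries, against 61.4, 66.1 and 63.1 TPM in the CDCA libraries. Its log2 fold change of 2.68 with a standard error of 0.09 (limma FDR 3.99e-06) was larger in size than that of any of the 31 tested carriers. UCP3 stayed at or below 0.07 TPM. A gene ID named COG3 in the deposited table but described as SLC25A30, another uncoupling protein relative, went from 51.1 ± 2.20 to 24.0 ± 0.78 TPM, with a log2 fold change of -1.06 with a standard error of 0.05 (limma FDR 1.35e-05); which of these neighbouring names its reads belong to cannot be told here. The IDs of SLC25A10 (7.32 ± 0.65 and 7.65 ± 0.63 TPM), SLC25A51 (10.1 ± 1.08 and 10.3 ± 0.37 TPM) and SLC25A32 (1.35 ± 0.10 and 0.923 ± 0.22 TPM) carry no name in the table, and none of these 3 passed. SLC25A46 was listed at or below 0.54 TPM.

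The genes that import carriers or pass solutes beside them, together with family members under other symbols such as UCP2, were examined in the same fit. Of 26 symbols, 20 matched a gene ID and 18 were tested; 2 rose, UCP2 and TOMM70, and 8 fell, against 29.3% and 23.9% of all tested genes. Of 3 tested genes of the TIM22 translocase, 1 fell, and TIMM29 and AGK did not pass: TIMM22, the channel that inserts carriers, went from 19.1 ± 1.64 to 12.4 ± 0.95 TPM (log2 change -0.58, limma FDR 0.00127). Of 5 tested small TIM chaperones, which carry the precursors through the intermembrane space, TIMM8A, TIMM8B and TIMM13 fell (log2 fold changes -0.56, -0.52 and -0.61). TIMM10 (log2 change 0.07, limma FDR 0.441) and TIMM10B (0.21, limma FDR 0.0882) did not pass, although TIMM10B was higher in every CDCA library. TIMM9 had no matched gene ID. In the TOM complex, the entry gate of the outer membrane, 4 of 5 tested subunits fell. The largest fall was that of the channel TOMM40, at 63.6 ± 4.85 TPM in CON against 34.8 ± 0.98 in CDCA (log2 change -0.85, limma FDR 7.51e-05). TOMM70, the receptor that binds carrier precursors, was the exception at 32.65 ± 1.265 TPM and 38.1 ± 1.34 TPM, with a limma FDR of 0.00932 that was 0.322 with totals without the mtDNA-encoded genes. Neither of the 2 tested porins nor the tested subunit of the pyruvate carrier passed.

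Enzymes that make or use what the carriers move went in both directions: of 42 symbols, all matched, 33 were tested, and 12 rose and 12 fell (72.7% passing, against 53.2% of all tested genes, of which 29.3% rose and 23.9% fell). With totals without the mtDNA-encoded genes, 9 rose and 18 fell, on a scale where 43.2% of all tested genes, rather than 54%, had a log2 fold change above 0 and 51.5% passed. Beside the falling aspartate/glutamate carriers, the shuttle enzymes GOT2 (265 ± 4.50 to 230.5 ± 3.42 TPM) and MDH1 (76.0 ± 4.73 to 60.9 ± 4.44 TPM) fell, as did the glutamate dehydrogenase GLUD1 (619 ± 36.6 to 354 ± 11.4 TPM). Beside the fall of the ornithine carrier, the mitochondrial arginase ARG2 was called higher, from 14.45 ± 0.59 to 34.1 ± 1.09 TPM (log2 change 1.18, limma FDR 1.03e-05). All 3 tested enzymes of acylcarnitine formation and use fell with SLC25A20, CRAT (10.01 ± 1.37 to 4.75 ± 1.39 TPM) and CPT2 (12.8 ± 0.38 to 7.68 ± 0.50 TPM) by more than CPT1A, whose limma FDR of 0.0267 was 0.0785 without CON replicate 1, 0.0771 without CON replicate 3, 0.0746 without CDCA replicate 1 and 0.0816 without CDCA replicate 2.

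Of 4 tested genes of glycine use and heme synthesis, 1 rose and 1 fell, where 29.3% and 23.9% of all tested genes did, and FECH and PPOX did not pass. ALAS1, which condenses glycine in the first step of heme synthesis, rose from 19.1 ± 1.42 to 36.3 ± 0.60 TPM, and CPOX, a later enzyme of the same pathway, fell from 21.4 ± 0.15 to 13.9 ± 0.56 TPM (log2 change -0.59, limma FDR 0.000127). Of 3 tested one-carbon enzymes 2 rose, MTHFD2 (11.6 ± 1.01 to 23.15 ± 1.23 TPM) and SHMT2 (25.45 ± 1.27 to 35.8 ± 0.99 TPM), while MTHFD1L and SLC25A32, the folate carrier, did not pass. All 3 tested glutathione synthesis genes rose, GSS and GCLM with log2 fold changes of 0.71 and 0.68, while the importer SLC25A39 fell. GCLC was called higher, from 0.310 ± 0.29 to 2.50 ± 0.78 TPM (log2 change 1.42, limma FDR 0.00192). With 0.1 TPM added its log2 fold change was 2.83. Its CON values lay under 1 TPM, so it met the filter for testing only through its CDCA libraries. In coenzyme A synthesis, PANK2 was called lower, from 6.44 ± 0.32 to 0.760 ± 0.10 TPM (log2 change -2.08, limma FDR 1.08e-05). With 0.1 TPM added its log2 fold change was -2.93. The CDCA values of PANK2 lay under 1 TPM, so it met the filter for testing only through its CON libraries. PANK3 fell (log2 change -0.31, limma FDR 0.0172), whereas COASY rose. UCP2, TOMM40, ARG2, GCLC and PANK2 were named by a rule on size, and the other genes of these last paragraphs were named after their values were seen.

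**Figure D5:**
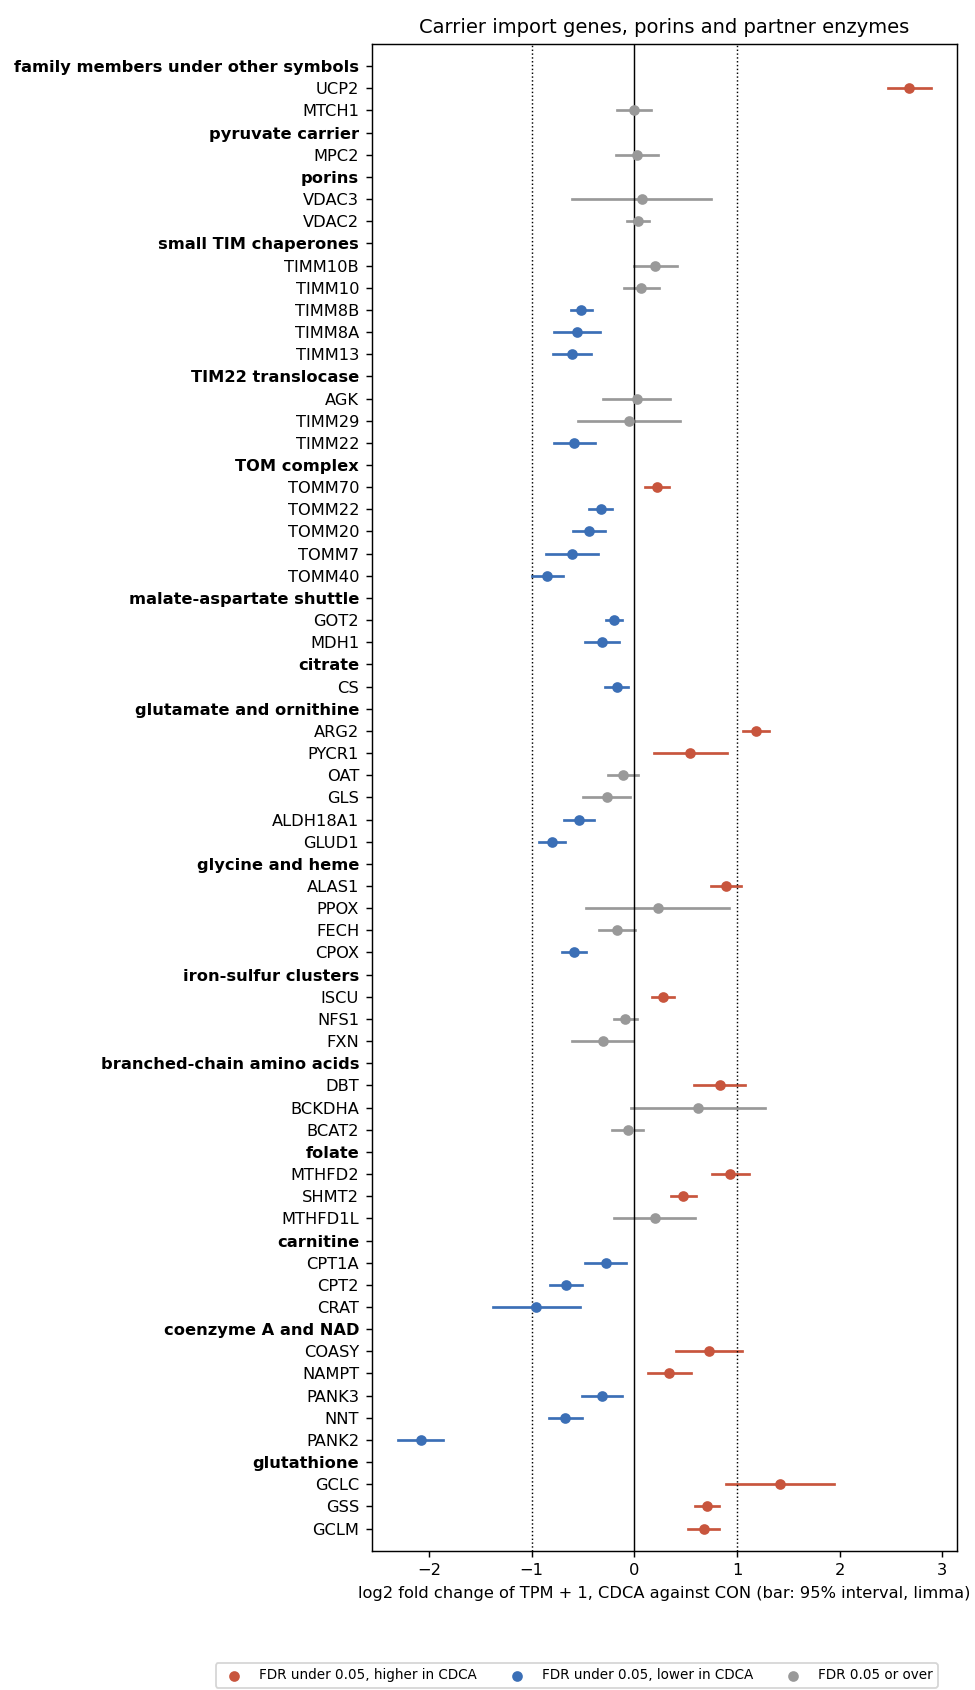
Log2 fold change of TPM + 1 in CDCA against CON for the 18 tested import, porin and related genes and the 33 tested partner enzymes, with 95% intervals from limma; red marks genes that rose, blue those that fell and grey those that did not pass. UCP2 lies farthest to the right at 2.68 and PANK2 farthest to the left at -2.08.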

How the data were processed

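Total RNA of 6 IPEC-J2 libraries was sequenced, and the authors deposited TPM values made with RSEM for 63041 transcript rows of 31908 Ensembl pig gene IDs; the deposited values are not counts. The submitters' processing notes name Bowtie 0.12.2 and the mouse build mm10, which does not match the pig IDs, so no coordinates are given. Members were the rows named SLC25A and a digit, summed per gene ID; 38 of 41 names matched a separate table of Ensembl IDs. Other symbols came from that table, then from the deposited names. Gene sums averaging 1 TPM or more across all 6 libraries entered limma 3.58.1 under R 4.3.3 (linear fit, then empirical Bayes with a trend) as log2(TPM + 1), with no block and Benjamini-Hochberg adjustment over 8708 genes. The steps were tested on simulated data. edgeR, which the study used, needs counts and was not used.

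The members, the gene lists, the rule for named genes and the alternatives were chosen with earlier results of these data known. The rule named carriers called, the 5 of highest mean and the largest change in each group of substrates in full; of the other lists, called genes and the largest rise and fall. Alternatives were a pseudocount of 0.1 TPM, no filter, a mean of at least 5 TPM, totals without the mtDNA-encoded genes, rescaling to 1000000, median ratio scaling, the highest transcript, a replicate block, and leaving out each library. Totals without the mtDNA-encoded genes were sums of the listed TPM only. The shift that totals of full libraries would give was not computed. For 1 carrier, which is counted in the totals, the result is not reported here.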

Additional observations from a re-analysis of the deposited data

How the results depend on the processing

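The counts of 9 rising and 13 falling carriers ranged from 5 (mean of at least 5 TPM, which left 20 carriers tested) to 9 and from 10 to 15 over all alternatives, and their median log2 fold change lay between -0.24 and -0.09. Leaving out single libraries, 7 to 9 carriers rose and 10 to 13 fell, 0 to 1 was called higher and 1 to 2 called lower. A carrier was called higher (1) and others called lower with a pseudocount of 0.1 TPM (4) and with rescaling to 1000000 (1 and 3); 3 were called lower with totals without the mtDNA-encoded genes, 2 with median ratio scaling, and 1 was called higher with the highest transcript. Totals of the listed TPM without the mtDNA-encoded genes moved the median log2 fold change of all tested genes from 0.05 to -0.08. Under them SLC25A3 (-0.079), SLC25A4 (-0.11) and SLC25A17 (-0.050) changed sign, of the import and porin list only UCP2 (1 gene) rose rather than UCP2 and TOMM70 (2), partner enzymes split into 9 that rose and 18 that fell, and the summed level of the family, as a share of the other listed TPM, had a ratio of CDCA to CON of 0.948, against 1.05 as deposited and 0.822 without SLC25A6. SLC25A4 changed sign with median ratio scaling (-0.012) and SLC25A29 with the highest transcript (-0.086). Without each library in turn, SLC25A21 ranged from -0.31 to 0.12 and SLC25A40 from -0.29 to 0.066. None of these carriers passed the test in the main fit. Same-numbered libraries of the 2 groups did not deviate together (r of deviations from the group means -0.04, -0.09 and -0.05). These values cannot tell whether such libraries shared a culture, and the labels do not say. With the replicate block, 8 carriers rose and 12 fell; SLC25A14 and SLC25A15 no longer passed, and no other carrier crossed the FDR threshold. The TPM table holds no read counts per gene, so small differences at low TPM cannot be given a counting error.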
